A study of Mus musculus with 10 samples.

Results

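The genes described here code for ion channels that a transmitter opens directly, the receptors for GABA, glycine, acetylcholine, serotonin and glutamate. They were chosen by name and by count: protein-coding genes whose symbols begin with Gabr, Glra, Glrb, Chrn, Htr3, Gria, Grik, Grid or Grin and a subunit code, with at least 50 reads summed over the 10 libraries. Of the 40481 genes in the deposited table, 61 had such a name and 52 reached the count. The 9 below it ran from Gabra6 with 0 reads to Chrna5 with 35, and the members just above it were Glra3 with 57, Chrna2 with 63 and Glra1 with 75. The name pattern also took in Grid2ip, a scaffold protein and no channel itself.

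These receptors fall into unrelated families. Receptors for GABA, glycine and acetylcholine and the 5-HT3 serotonin receptor are rings of subunits of the Cys-loop family. The AMPA, kainate, delta and NMDA glutamate receptors are built on a different plan. In adult sensory neurons the cotransporter Nkcc1 keeps chloride high inside the cell, so GABA-A receptors depolarise these neurons and their terminals, which dampens transmitter release onto the spinal cord. Kainate receptors with the GluK1 subunit, 5-HT3 receptors and nicotinic receptors are known from small sensory neurons that carry pain and temperature.

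Total RNA of dorsal root ganglia (DRG), which house the cell bodies of sensory neurons, was sequenced from C57BL/6 mice. Oxaliplatin, a platinum chemotherapy agent that injures sensory nerves, had been given at 10 mg/kg, over 8 weeks by the design text, to the mice behind 5 of the libraries, and vehicle to those behind the other 5. Neither a transgene nor a mutation is named in the labels, and the sources used here give neither ages nor a dosing schedule. Because the labels number the libraries but do not tie each to its own animal, the spread behind every p-value may be partly technical. Library totals ran from 52963470 to 60984426 reads. Markers of neurons were abundant: Tubb3, Stmn2 and Snap25 had group means of 2535 to 9412 CPM (read counts scaled to library size with TMM factors, counts per 1e6). The summed level of the 12 neuron markers was 17632 to 19041 CPM after oxaliplatin and 18835 to 21795 CPM after vehicle. None of these markers passed the test over all genes in either direction. At an unadjusted edgeR p below 0.05, 4 were lower, where 7.80% of all tested genes were. Stmn2 stood at -0.19 ± 0.06 (log2 fold change ± SE) and Tubb3 at -0.20 ± 0.06 (edgeR adjusted p = 0.0919 and 0.113). In whole ganglia fewer cells of a type and less RNA per cell cannot be told apart.

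Levels of different genes were compared per kb of merged exon length, and 3 receptor genes stood far above the others. Htr3a, the subunit every 5-HT3 receptor needs, had 85.8 ± 9.49 CPM per kb (mean ± SD over all 10 libraries). Grik1, which codes for the kainate subunit GluK1, had 46.3 ± 6.37 CPM per kb, and Chrna6, the nicotinic alpha6 subunit, 37.9 ± 4.81 CPM per kb. Among those next in level were Glrb, the glycine beta subunit (11.1 ± 1.499 CPM per kb), and Htr3b and Gabra2 (9.19 ± 1.45 and 8.96 ± 1.05 CPM per kb), of which the last pair did not differ beyond its spread. The glycine alpha subunits were scarce, with 2 to 25 reads per library for Glra1 and 0 to 16 for Glra3. Grin2b, an NMDA subunit that is common in brain, was at 0.0104 ± 0.0035 CPM per kb, over a merged exon length of 24842 bases that its transcripts may not use in full. Glra3, at 0.0108 ± 0.0104 CPM per kb, did not differ from it beyond the spread, and these were the lowest levels.

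**Figure D1:**
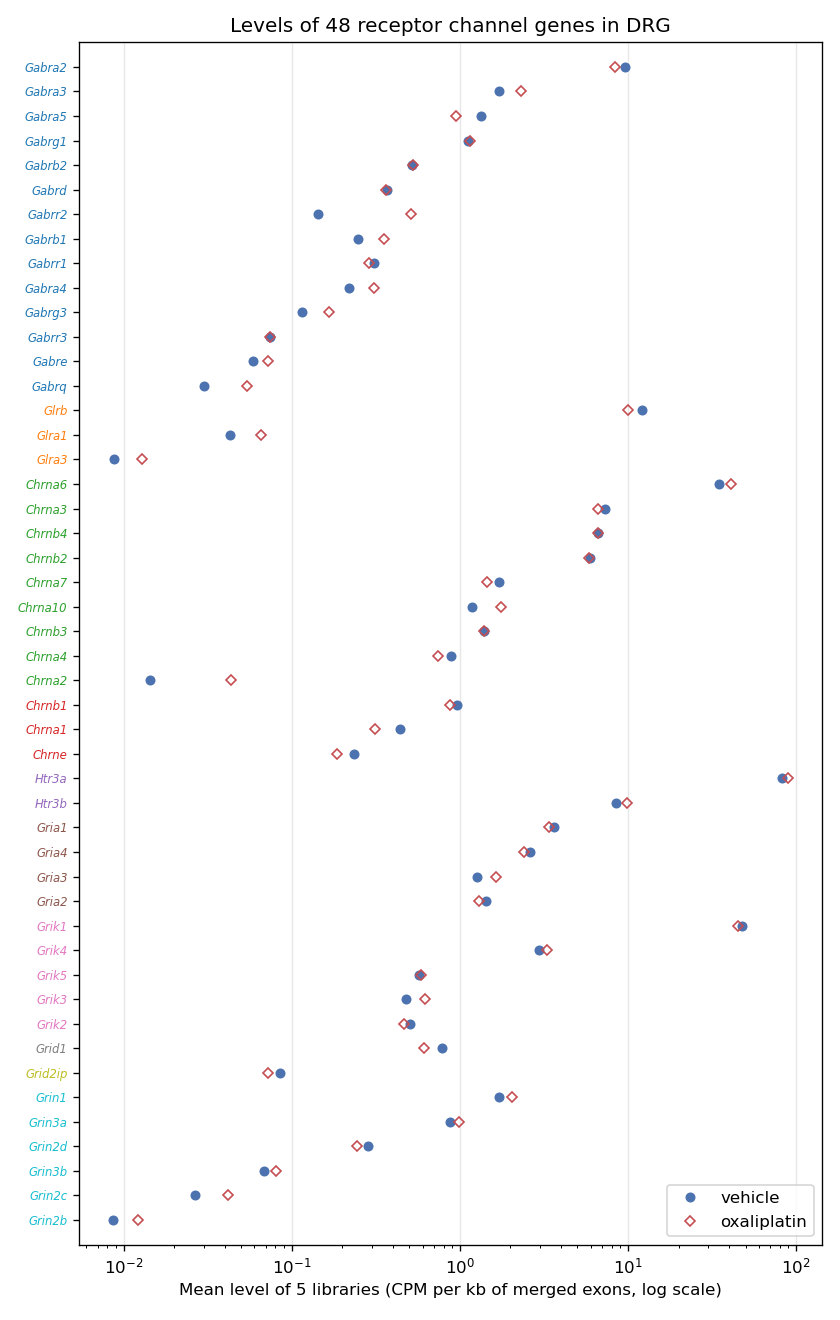
Mean level of 48 receptor genes in 5 vehicle libraries (filled circles) and 5 oxaliplatin libraries (open diamonds), in CPM per kb of merged exons on a log axis, ordered by level within each receptor family (label colours mark families). Htr3a, Grik1 and Chrna6 lie to the right of all others, and Gabrr2 has the widest gap between groups among the tested genes shown.

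After oxaliplatin 1 receptor gene rose, the GABA rho2 subunit gene Gabrr2, and none fell. Of the 52 genes, 48 had enough reads to be tested. At an adjusted p below 0.05 (edgeR quasi-likelihood test over all 18401 tested genes) 1 of 48 was higher, 2.08%, where 1.27% of all tested genes were higher, and 0 were lower, where 0.772% of all were. Without the factors for library composition, 303 genes of all were higher and 99 lower, in place of 234 and 142, and the receptor counts were again 1 and 0. DESeq2 called 3 receptor genes higher and 1 lower, beside 516 and 406 genes of all. With limma voom the receptor counts were 2 and 1, beside 439 and 365 genes of all. At an unadjusted p below 0.05 there were 8 higher and 5 lower, 16.7% and 10.4% of the 48, where all genes gave 8.51% and 7.80%. Non-overlapping groups were found for 2 receptor genes, both higher after oxaliplatin (4.17%, against 2.25% of all tested genes), and for 0 lower ones (1.77% of all). The receptor genes had no common direction: 24 had a log2 fold change above 0 and 24 below, with a median of 0.00, and the median over all tested genes was 0.01. The 4 genes with too few reads were Glra1, Glra3, Chrna2 and Grin2c.

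**Figure D2:**
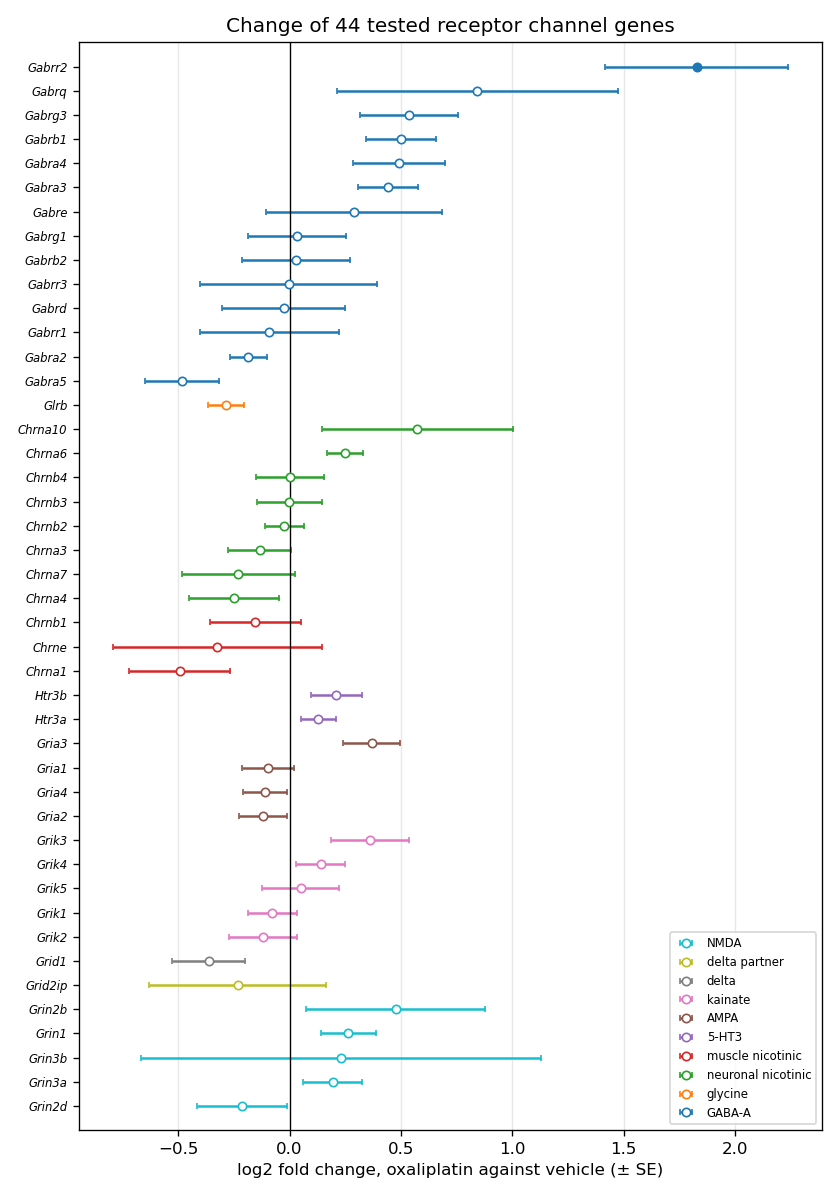
Log2 fold change of oxaliplatin against vehicle (± SE, 5 libraries a group) for 44 tested genes, grouped by receptor family and coloured as in the legend. Gabrr2, at 1.83, is filled because it alone has an edgeR adjusted p below 0.05, and the other 43 lie between -0.49 and 0.84.

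Gabrr2 codes for the rho2 subunit of GABA receptors, which assemble from rho subunits alone, resist the blocker bicuculline and are best known from the retina. Its level was 1.40, 0.496, 1.15, 1.07 and 1.29 CPM in oxaliplatin replicates 1 to 5, and 0.434, 0.0561, 0.358, 0.323 and 0.335 CPM in vehicle replicates 1 to 5. Every oxaliplatin library lay above every vehicle library, although oxaliplatin replicate 2 came close to vehicle replicate 1, and vehicle replicate 2 was far below the rest. These levels stand for 29 to 77 reads a library with the drug and 3 to 24 reads without it, so the gene was scarce in both groups. The means were 1.08 ± 0.349 CPM and 0.301 ± 0.144 CPM (SD, n = 5 and 5), a 3.55-fold rise (log2 fold change 1.83 ± 0.41 SE, edgeR adjusted p = 0.0296). The call did not hold in every edgeR fit that left out 1 library. It was lost without oxaliplatin replicate 1 (adjusted p = 0.0774), 3 (0.0544), 4 (0.0761) or 5 (0.0923) or vehicle replicate 4 (0.0771). In these fits, in the same order, genes of all called higher also fell, from 234 to 147, 177, 79, 80 and 82. The log2 fold change of Gabrr2 stayed between 1.57 and 2.01 whichever library was left out. DESeq2 gave the gene an adjusted p of 0.00101, and limma voom 0.0251.

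Neither of the other rho genes passed the test. Gabrr1, which codes for rho1 and lies next to Gabrr2 with no other protein-coding gene between them, had 0.467 to 0.889 CPM after oxaliplatin and 0.374 to 0.861 CPM after vehicle. Its log2 fold change was -0.09 ± 0.31, with a 95% interval of -0.75 to 0.57 (edgeR adjusted p = 0.930). Gabrr3, for rho3, was at 0.00 ± 0.40 (edgeR adjusted p = 0.997) on 7 to 29 reads per library. The difference in response between Gabrr2 and Gabrr1 was not tested. To show what precedes the called gene and its uncalled neighbour, the 250 bases before each annotated start are shown for both genes (RefSeq, build GRCm38.p6, plus strand, 5′ to 3′). Capitals mark matches on either strand to the glucocorticoid receptor half-site AGAACA, the GC box GGGCGG, the TATA box TATAAA or the REST half-site TTCAGCACC.
Gabrr2 (chr4:33062862-33063111): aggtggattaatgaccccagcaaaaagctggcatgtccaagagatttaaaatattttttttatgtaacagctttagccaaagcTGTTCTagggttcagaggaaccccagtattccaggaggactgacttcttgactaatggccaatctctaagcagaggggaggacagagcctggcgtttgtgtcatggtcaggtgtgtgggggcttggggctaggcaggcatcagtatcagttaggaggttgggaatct
Gabrr1 (chr4:33132306-33132555): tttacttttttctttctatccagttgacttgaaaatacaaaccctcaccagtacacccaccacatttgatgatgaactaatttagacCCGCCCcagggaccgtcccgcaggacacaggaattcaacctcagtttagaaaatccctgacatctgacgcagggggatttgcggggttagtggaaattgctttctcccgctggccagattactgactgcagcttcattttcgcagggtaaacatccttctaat
The Gabrr2 stretch held 1 match, TGTTCT, which is AGAACA read on the other strand, and the Gabrr1 stretch held 1, CCGCCC, a GC box on the other strand. AGAACA was found in 16.1% of all 32851 such stretches and in 5 of the 36 receptor genes with an entry. GGGCGG was found in 32.7% of all and in 18 of those 36, TATAAA in 12.4% and 4, and TTCAGCACC in 0.301% and 0. The share of all is over single stretches, while a receptor gene was counted if any of its stretches matched. A match describes letters and not a bound site.

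The other 14 GABA-A subunit genes gave no call (here and for the genes that follow, a signed value with ± and no unit is the log2 fold change of oxaliplatin against vehicle with its SE). Of all 17 genes of this family, the rho genes included, 5 were higher and 2 lower at an unadjusted edgeR p below 0.05. These are 29.4% and 11.8%, where all tested genes gave 8.51% and 7.80%, and the family was not tested as a set. The beta2 subunit gene Gabrb2 was at 0.03 ± 0.24, with a 95% interval of -0.49 to 0.54. Among the alpha subunits, which set where and how GABA and benzodiazepines act, differences ran both ways without passing over all genes. Gabra3 had 11.3, 8.85, 8.00, 9.01 and 8.15 CPM in oxaliplatin replicates 1 to 5, and 6.37, 8.59, 6.38, 6.55 and 5.48 CPM in vehicle replicates 1 to 5. Only vehicle replicate 2 reached into the oxaliplatin range, for a log2 fold change of 0.44 ± 0.14 (edgeR adjusted p = 0.108, 0.0406 without vehicle replicate 2 and 0.0407 in DESeq2). Gabra5 had 2.74, 2.84, 3.74, 2.21 and 2.65 CPM after oxaliplatin and 3.67, 3.71, 4.35, 3.42 and 4.70 CPM after vehicle. Of the drug libraries only oxaliplatin replicate 3 lay within the vehicle range, and the log2 difference between groups was -0.48 ± 0.17 (edgeR adjusted p = 0.149). Gabra4 read 1.85, 2.22, 2.21, 1.66 and 1.49 CPM after the drug and 1.72, 1.37, 1.07, 1.45 and 1.10 CPM after vehicle, with groups that overlapped (0.49 ± 0.21, edgeR adjusted p = 0.246). Gabra2, an abundant alpha subunit gene, read 63.7, 60.8, 76.5, 62.5 and 56.9 CPM after the drug and 76.9, 76.9, 74.5, 74.3 and 61.5 CPM after vehicle (-0.19 ± 0.08, edgeR adjusted p = 0.285). Its groups overlapped through oxaliplatin replicate 3, which was high, and vehicle replicate 5, which was low.

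Of the beta and gamma subunits, Gabrb1 had 4.52, 5.13, 5.30, 4.09 and 5.41 CPM in oxaliplatin replicates 1 to 5 and 2.82, 3.97, 3.49, 2.74 and 4.25 CPM in vehicle replicates 1 to 5. Only oxaliplatin replicate 4 and vehicle replicate 5 overlapped, and the log2 difference between groups was 0.50 ± 0.16 (edgeR adjusted p = 0.117, 0.0439 in DESeq2 and 0.0428 in limma voom). Gabrg3 read 1.87, 2.32, 1.33, 2.08 and 2.37 CPM after oxaliplatin and 1.45, 1.40, 1.59, 0.884 and 1.57 CPM after vehicle (0.53 ± 0.22, edgeR adjusted p = 0.235), with oxaliplatin replicate 3 among the vehicle libraries. Gabrg1 was at 0.03 ± 0.22 and Gabrd, whose delta subunit sits outside synapses, at -0.03 ± 0.28. Gabre (0.29 ± 0.39) and Gabrq (0.84 ± 0.63) rested on 10 to 32 and 0 to 28 reads per library.

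Glrb codes for the beta subunit that ties glycine receptors to the scaffold gephyrin. It had 43.7, 50.5, 44.3, 51.2 and 42.8 CPM in oxaliplatin replicates 1 to 5, and 63.0, 59.6, 51.9, 58.5 and 50.4 CPM in vehicle replicates 1 to 5. The groups overlapped only where vehicle replicate 5 lay between the oxaliplatin libraries. Its log2 fold change came to -0.29 ± 0.08 (edgeR adjusted p = 0.0785), past the threshold in DESeq2 (0.0243) and in limma voom (0.0279) and in 0 of 10 edgeR fits that left out 1 library. The alpha subunits with which it would assemble, Glra1 and Glra3, were below the filter on low counts, and without that filter neither was called (edgeR adjusted p = 0.769 and 0.859).

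**Figure D3:**
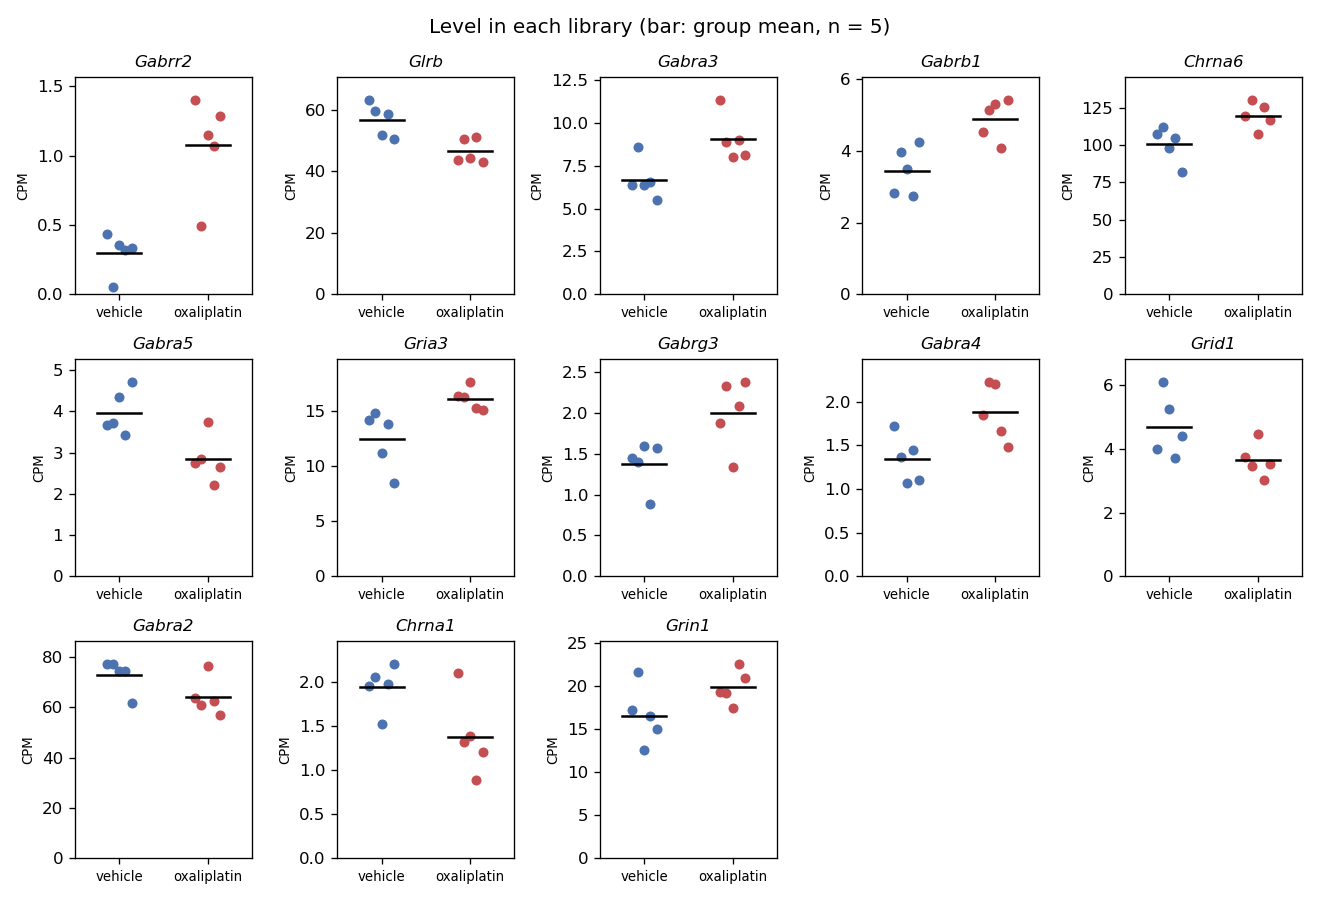
Level in CPM of each library for the 13 receptor genes with an unadjusted p below 0.05, with vehicle libraries in blue, oxaliplatin libraries in red and bars at the mean of 5. The groups are apart for Gabrr2 (0.496 CPM or more against 0.434 or less) and Gria3 (15.1 CPM or more against 14.8 or less) and overlap for the others.

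Among the nicotinic receptor genes none passed the edgeR test over all genes, and DESeq2 and limma voom also called none. At an unadjusted edgeR p below 0.05, 1 of 11 tested was higher and 1 lower, where all tested genes gave 8.51% and 7.80%. Chrna6 stood at 119.6, 129.9, 107.3, 125.2 and 116.6 CPM in oxaliplatin replicates 1 to 5 and at 107.6, 112.1, 97.9, 104.5 and 81.7 CPM in vehicle replicates 1 to 5. The groups overlapped through oxaliplatin replicate 3, vehicle replicate 5 was the lowest library, and the log2 difference between groups was 0.25 ± 0.08 (edgeR adjusted p = 0.127). When 1 library was left out, the log2 fold change of Chrna6 ran from 0.18, without vehicle replicate 5, to 0.29, without vehicle replicate 2. Chrnb3, the neighbour of Chrna6 in the genome and a common partner of alpha6, was at 0.00 ± 0.15. The ganglionic pair Chrna3 and Chrnb4 was at -0.13 ± 0.14 and 0.00 ± 0.15, Chrnb2 at -0.02 ± 0.09, Chrna4 at -0.25 ± 0.20 and Chrna7 at -0.23 ± 0.25. Chrna10, known from the hair cells of the ear, varied widely within both groups, from 2.46 to 7.56 CPM after oxaliplatin and from 1.27 to 4.88 CPM after vehicle (0.57 ± 0.43, edgeR adjusted p = 0.574). In the GENCODE M21 annotation 39% of its merged exon length is shared with Art1 on the opposite strand, which had 0 to 75 reads per library beside 68 to 468 for Chrna10, and the sources used here do not say whether strand was used in counting. Chrna2 had 0 to 26 reads per library and was not tested.

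The muscle-type subunits were all low. Chrna1, the alpha1 subunit of the nerve-muscle junction, had 2.10, 1.32, 1.38, 0.888 and 1.20 CPM in oxaliplatin replicates 1 to 5 and 1.95, 2.06, 1.52, 1.97 and 2.20 CPM in vehicle replicates 1 to 5. Oxaliplatin replicate 1 was the only drug library among the vehicle values (-0.49 ± 0.23, edgeR adjusted p = 0.292). The summed level of skeletal muscle markers was 847 CPM in oxaliplatin replicate 1, 14.3 to 31.2 CPM in the other 4 oxaliplatin libraries and 110 to 556 CPM after vehicle. Acta1, Tnnt3 and Ckm were the most abundant of these 13 markers and Myh7 had 1 to 9 reads per library, while 0 of 12 tested passed (Myh4 at -1.83 ± 1.41 and Tnnc2 at -1.44 ± 1.31, edgeR adjusted p = 0.590 and 0.656). The part of muscle RNA in the Chrna1 value was not tested. The antisense gene Chrna1os had 52 to 114 reads per library, about as many as Chrna1 (55 to 118), but GENCODE M21 lists no exon bases that the pair shares. Chrnb1 was at -0.15 ± 0.21 and Chrne at -0.32 ± 0.47. Chrnd and Chrng, the other muscle subunits, had 8 and 16 reads in all and lay under the count minimum.

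Both 5-HT3 receptor genes had means slightly above vehicle, within the spread of the libraries. Htr3a had 170 to 221 CPM after oxaliplatin and 149 to 193 CPM after vehicle (0.13 ± 0.08, 95% interval -0.04 to 0.30, edgeR adjusted p = 0.460). Htr3b, which joins Htr3a in mixed receptors and lies beside it in the genome, had 20.2 to 28.0 CPM and 17.2 to 22.9 CPM (0.21 ± 0.11, 95% interval -0.03 to 0.45, edgeR adjusted p = 0.387). In both genes oxaliplatin replicate 1 was the highest of all libraries.

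None of the glutamate receptor genes passed the edgeR test over all genes, and DESeq2 and limma voom gave none either. At an unadjusted edgeR p below 0.05, 2 were higher (1 of 4 AMPA and 1 of 5 tested NMDA genes) and 1 lower (1 of 2 delta genes). Of the 5 kainate genes 0 were higher or lower at this threshold, where all tested genes gave 8.51% and 7.80%. Gria3, the AMPA subunit GluA3, had 16.4, 16.3, 17.6, 15.2 and 15.1 CPM in oxaliplatin replicates 1 to 5 and 14.1, 14.8, 11.2, 13.8 and 8.46 CPM in vehicle replicates 1 to 5. Every oxaliplatin library was above every vehicle library, by little at the edge, with vehicle replicate 5 far below the rest (0.37 ± 0.13, edgeR adjusted p = 0.159). The other AMPA subunits lay slightly below 0, with Gria1 at -0.10 ± 0.12, Gria2, which makes the channel tight to calcium, at -0.12 ± 0.11 and Gria4 at -0.11 ± 0.10. Grik1 was even across the drug libraries, at 290 to 323 CPM, and ranged from 237 to 390 CPM after vehicle (-0.08 ± 0.11, 95% interval -0.31 to 0.16). The remaining kainate subunits were Grik2 (-0.12 ± 0.15), Grik3 (0.36 ± 0.17, edgeR adjusted p = 0.316), Grik4 (0.14 ± 0.11) and Grik5 (0.05 ± 0.17).

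Grid1 codes for the delta1 receptor, which binds cerebellins and holds synapses together. It had 3.74, 3.47, 4.48, 3.02 and 3.52 CPM after oxaliplatin and 4.00, 6.08, 5.26, 3.71 and 4.40 CPM after vehicle, in overlapping groups (-0.36 ± 0.16, edgeR adjusted p = 0.285). The scaffold gene Grid2ip was at -0.23 ± 0.40. Grin1, the subunit that every NMDA receptor contains, had 19.3, 19.2, 17.5, 22.5 and 20.9 CPM after oxaliplatin and 17.2, 21.6, 12.5, 16.5 and 15.02 CPM after vehicle. The groups overlapped where vehicle replicate 2 lay high among the drug libraries (0.26 ± 0.12, edgeR adjusted p = 0.299). Grin3a was at 0.19 ± 0.13 and Grin2d at -0.22 ± 0.20. Grin2b (0.48 ± 0.40) and Grin3b (0.23 ± 0.90) had at most 24 and 30 reads in any library, and Grin2c, with 6 to 23 reads, was not tested.

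Many receptor genes lie side by side in the genome, 22 of the 52 in runs with no other protein-coding gene between them (RefSeq gene order). Neighbours had like values in some runs and unlike values in others. Gabra4 and Gabrb1 were at 0.49 and 0.50, and their exons share 46 bases on opposite strands. Gabra3 and Gabrq were at 0.44 and 0.84. For the neighbours Gabrg3 and Gabra5 the values were 0.53 and -0.48, and for Gabrr2 and Gabrr1 they were 1.83 and -0.09. These are log2 fold changes, and no difference between neighbours was tested. In GENCODE M21, 20 of the 52 genes share exon sequence with another gene. The share of merged exon length was highest for Chrna10 (Art1, 39%), Grin3b (Tmem259, 32.1%), Chrnb2 (Adar, 16.3%) and Grin1 (Grin1os, 13.5%), all on opposite strands. Reads per library were 111 to 289 for Tmem259 beside 0 to 30 for Grin3b. Adar had 1617 to 2509 beside 2397 to 3102 for Chrnb2, and Grin1os 0 to 16 beside 701 to 1392 for Grin1. The strand setting of the counting is not given, and the part of the overlapping genes in the receptor counts was not tested.

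**Figure D4:**
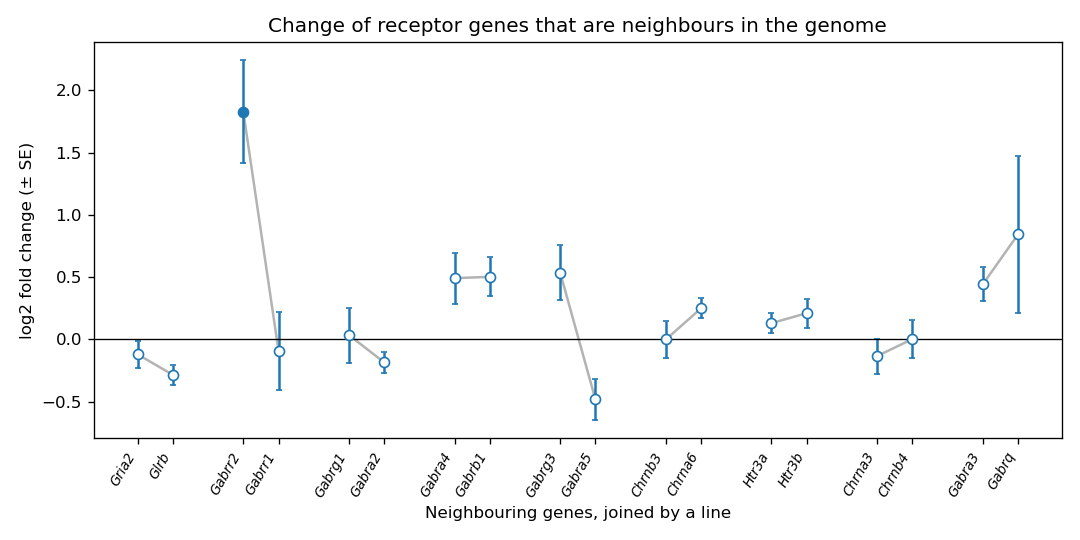
Log2 fold change of oxaliplatin against vehicle (± SE, 5 libraries a group) for 18 receptor genes that are neighbours in the genome, joined by a line within each run and drawn in gene order without distances. Gabrr2 (1.83, filled, the only call) stands beside Gabrr1 (-0.09), and Gabra5 (-0.48) beside Gabrg3 (0.53), while Gabra4 and Gabrb1 are level at 0.49 and 0.50.

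Some genes that serve these transmitters outside the receptors passed the test. The lists used here and below were chosen with earlier results of these data known, which may have raised their share of calls. Of 23 tested genes for making, moving and breaking down transmitters 2 rose and 0 fell, where 1.27% of all tested genes rose and 0.772% fell. Among those that rose was Glul, glutamine synthetase of glial cells, by 1.30-fold (0.38 ± 0.08, edgeR adjusted p = 0.0223). Leaving out 1 library ended its call in 4 of 10 fits, those lacking replicates 4 and 5 of oxaliplatin and replicates 1 and 4 of vehicle (highest adjusted p 0.0733). Slc17a6, the glutamate carrier of synaptic vesicles in these neurons, was at 0.01 ± 0.06. Gad1, which makes GABA, had 0.496 to 1.37 CPM after oxaliplatin and 0.634 to 1.20 CPM after vehicle.

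Of 12 tested genes in a list of chloride carriers, channels and kinases, 2 rose and 0 fell. Of all tested genes, 1.27% rose and 0.772% fell at the same threshold. Slc12a7, the potassium-chloride cotransporter KCC4, rose 1.36-fold (0.45 ± 0.10, edgeR adjusted p = 0.0343), and Clcn2, the chloride channel ClC-2, 1.34-fold (0.42 ± 0.10, edgeR adjusted p = 0.0401), both without overlap between the groups. Groups without overlap were found for 2.25% of all tested genes with oxaliplatin above and for 1.77% with it below. Slc12a2, which codes for Nkcc1, was at 0.16 ± 0.08 (edgeR adjusted p = 0.330). Of 13 tested partners of GABA and glycine receptors 1 fell and 0 rose: Nlgn2, an adhesion protein of inhibitory synapses, was 1.26-fold lower (-0.34 ± 0.08, edgeR adjusted p = 0.0350), again without overlap. The scaffold Gphn was at -0.04 ± 0.08. Leaving out 1 library ended the call of Slc12a7 in 7 of 10 fits, of Clcn2 in 8 and of Nlgn2 in 8 (highest adjusted p 0.0977, 0.130 and 0.0871).

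The remaining partner lists held no call. For the counts that follow, all tested genes gave 8.51% higher and 7.80% lower at an unadjusted edgeR p below 0.05. Among 23 tested partners of glutamate receptors 0 rose and 0 fell (edgeR, with 0 higher and 1 lower at an unadjusted p below 0.05). Neto2, which tunes kainate receptors, was at -0.40 ± 0.15 (edgeR adjusted p = 0.177), and Dlg1 at 0.26 ± 0.13 (0.343). Among 15 partners of nicotinic and 5-HT3 receptors none passed and 2 were lower at an unadjusted p below 0.05. These were Lypd1 (-0.67 ± 0.19, edgeR adjusted p = 0.0881) and Ly6h (-0.42 ± 0.13, 0.122), both small proteins that bind nicotinic receptors. Among 22 tested G protein-coupled receptors for the same transmitters 0 passed, with 1 higher and 3 lower at an unadjusted p below 0.05, among them the serotonin receptors Htr1f (-0.35 ± 0.13, edgeR adjusted p = 0.182) and Htr1b (-0.33 ± 0.13, 0.223).

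Markers of other cell types are given beside these values. Among satellite glia markers, with Apoe and Fabp7 among the most abundant, Fabp7 fell 1.97-fold (-0.98 ± 0.18, edgeR adjusted p = 0.0298, at most 0.0779 over the fits that left a library out) while Glul, which is also in this list of 6, rose. Their summed level was 3375 to 4645 CPM after oxaliplatin and 3851 to 5709 CPM after vehicle. Of 6 fibroblast and meningeal markers, with Dcn, Col1a2 and Lum the most abundant, Pdgfra rose 1.53-fold (0.62 ± 0.14, edgeR adjusted p = 0.0266, at most 0.0858 over those fits, 7 of 10 of which ended the call for each gene). Their sums were 895 to 1131 and 762 to 988 CPM. Schwann cell markers (Pmp22 and Mbp among the highest, Ncmap at 0.52 ± 0.15) had 0 of 8 called and sums of 8373 to 11313 and 7624 to 10411 CPM. Spinal cord and brain markers (Mobp, Gfap and Aqp4 highest) had 0 of 5 tested called, with sums of 30.6 to 51.8 and 17.3 to 48.7 CPM and Olig2 and Neurod2 at 0 to 3 reads per library. Adipocyte markers (Cfd, Cidec and Adipoq) had 0 of 4 tested called and summed to 561 CPM in oxaliplatin replicate 1, 12.5 to 40.1 CPM in the other drug libraries and 5.75 to 26.1 CPM after vehicle. Macrophage markers (C1qb, Csf1r and C1qa highest, Aif1 at -1.40 ± 0.34 without overlap between the groups, edgeR adjusted p = 0.0537) had 0 of 8 called and sums of 46.9 to 66.9 and 43.7 to 80.01 CPM. At an unadjusted p below 0.05 edgeR gave 3 higher Schwann cell, 2 higher spinal cord, 2 higher adipocyte and 2 higher fibroblast and meningeal markers. At that threshold 2 macrophage markers were lower, and of the satellite glia markers 2 were higher and 2 lower. All tested genes gave 8.51% higher and 7.80% lower there, and 1.27% and 0.772% at an adjusted p below 0.05. Which cells made Gabrr2 or Slc12a7 was not measured, and the part of these cells in the receptor values was not tested. Without oxaliplatin replicate 1, where muscle and adipocyte markers were highest, the log2 fold change of Gabrr2 was 1.72 (edgeR adjusted p = 0.0774).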

How the data were processed

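Per the labels' protocols, RNA was taken from dorsal root ganglia kept in RNAlater, extracted on magnetic beads and made into libraries with a SMARTer kit. Samples had RNA integrity above 8, per the series' design text. The authors deposited raw read counts per Ensembl gene for all 10 libraries. STAR 2.5.1a, Partek and DESeq2 are named in the submitters' processing notes without roles; the design text names Partek for differential expression. The sources used here name no build, annotation, strand setting or counting step, and the coordinates printed are those of RefSeq sequences. Repeated rows (276) were dropped, leaving 40481 genes.

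Genes passing filterByExpr were tested with edgeR 4.0.16 (R 4.3.3): TMM factors, robust quasi-likelihood fit of oxaliplatin against vehicle without covariates, Benjamini-Hochberg adjustment over all 18401 tested genes, threshold 0.05. Each SE was derived from the log2 fold change and its F statistic. CPM use TMM-scaled library sizes. Lengths are merged exons of GENCODE M21. The test was checked on simulated counts with independent libraries and with changes placed only in genes above a minimum level. That check cannot speak to batches shared by libraries or to the scarcest members. Alternatives were DESeq2 1.42.0, limma 3.58.1, sva 3.50.0 (1 surrogate variable), other factors and filters, covariates and left-out libraries.

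Members and lists were chosen with earlier results of these data known. Some members and list genes are not reported here, though they stay in all counts apart from that of single libraries standing apart. The other members are named, and of each other list the called genes or the 2 of smallest p, with up to 3 most abundant markers. Gabrr1 promoter, Gad1, Slc17a6, Slc12a2, Gphn, Art1 and other overlapping genes were chosen after their values were seen. Chi-square tests between libraries of a group gave 12.9 to 54.6 per degree of freedom, so no pair looked like repeat deposits of 1 library; this does not show that they are separate animals.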

Additional observations from a re-analysis of the deposited data

Results flagged for a closer look

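In 8 of 96 groups of 5 libraries, 1 library stood apart from the other 4 by more than 0.71 of the group's range, where chance gives about 1 in 20. Vehicle replicate 5 was low in Gabra2 at 61.5 CPM (others 74.3 to 76.9) and in Gria2 at 16.3 CPM (others 22.9 to 24.2). Oxaliplatin replicate 5 was low in Grin3a at 8.53 CPM (others 12.5 to 13.7) and in Grin2d at 1.37 CPM (others 1.63 to 1.72). Oxaliplatin replicate 4 was low in Gabrd at 0.808 CPM (others 1.07 to 1.16). Gabrd was also low in vehicle replicate 3, at 0.447 CPM (others 1.14 to 1.31). Gabrg3 was low in vehicle replicate 4 at 0.884 CPM (others 1.40 to 1.59), and Grin2c high in oxaliplatin replicate 2 at 0.393 CPM (others 0.113 to 0.188).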

How the results depend on the processing

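Under the 21 alternatives, 30 of the 48 tested receptor genes kept the sign of their log2 fold change throughout and 18, all without a call in any setting, took another sign at least once. Genes called in at least 1 alternative were Gabrr2, Glrb, Gabra3, Gabrb1 and Chrna6. Receptor genes called higher numbered 3 with DESeq2, 2 with limma voom, 0 with 1 surrogate variable, 0 with the neuron marker mean as a covariate (Gabrr2 at a log2 fold change of 1.72 and 2.12, adjusted p 0.146 and 0.0668), 0 when oxaliplatin replicate 1 and vehicle replicate 5 were dropped together (0.0993), and 0 with a filter of 1 CPM in 5 libraries, which removes Gabrr2. Leaving out each library in turn gave 0 to 2 higher and 0 to 0 lower. Called lower was 1, Glrb, with DESeq2, limma voom or a threshold of 0.1, and 0 otherwise apart from the fit with a block. At an unadjusted p below 0.05, 5 were higher and 8 lower with 1 surrogate variable, 2 lower without a composition factor, 2 lower with the neuron covariate, and 6 to 9 higher and 2 to 6 lower when 1 library was left out.

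Over all genes, higher and lower counts were 424 and 304 at a threshold of 0.1, 516 and 406 with DESeq2, 439 and 365 with limma voom, 77 and 36 with 1 surrogate variable, 62 and 73 with the neuron covariate, 142 and 76 without oxaliplatin replicate 1 and vehicle replicate 5, and 79 to 343 and 34 to 251 when 1 library was left out. The cause was not tested. The labels give no pairing of libraries by replicate number. Same-numbered deviations correlated at -0.04 to 0.21, and 3 of 5 oxaliplatin libraries correlated best with their own number. These values do not settle whether the numbers pair the libraries. With the replicate block 382 genes of all were higher and 278 lower, and among receptor genes 2 higher (Gabrr2 and Chrna6) and 1 lower (Glrb). Alternatives for the called genes of the other lists were added after seeing the data. Gabrr3, Gabre, Gabrq, Grin2b and Grin3b, with at most 32 reads in any library, had standard errors of 0.39 to 0.90, so only large changes could be seen in them.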

Other observations

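The levels of several receptor families were summed in each library, and the sums were not tested. The 17 GABA-A genes summed to 237 to 272 CPM after oxaliplatin and 200.4 to 285 CPM after vehicle, and the 9 neuronal nicotinic genes to 214 to 279.6 and 213 to 280.3 CPM. The sum of the 5 kainate genes, most of it Grik1, spread less after oxaliplatin, at 325 to 357 CPM, than after vehicle, at 268 to 422 CPM. By the SD of single genes, Grik1 and Grik4 spread less after oxaliplatin, and Grik2, Grik3 and Grik5 spread more. No difference in spread was tested. The 6 NMDA genes summed to 31.7 to 38.2 CPM after oxaliplatin and 26.7 to 34.0 CPM after vehicle. The 3 glycine receptor genes, nearly all of it Glrb, summed to 43.3 to 51.3 CPM and 50.8 to 63.2 CPM, and the 3 muscle nicotinic genes to 3.27 to 5.03 CPM and 4.04 to 5.82 CPM. The groups overlapped in each of these sums.

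Of the receptor genes under the count minimum, Gabra6, a subunit of cerebellar granule cells, had 0 reads in all 10 libraries. A count of 0 has an approximate 95% upper limit of 3 reads, or 0.0485 to 0.0561 CPM, in a library. Glra4 had 4 reads in all, Gabrp 6, Grin2a 27, Chrna9 28 and Glra2 30.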
